A study of Mus musculus with 12 samples.

Results

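The 7 genes of the Fos and Jun families, whose proteins make up the core of the AP-1 transcription factor, were followed in the mouse pancreas across genotype and injection. They were taken as every probe set whose platform annotation gives a single symbol out of Fos, Fosb, Fosl1, Fosl2, Jun, Junb and Jund. This gave 9 probe sets of 7 genes, out of 22516 probe sets and 12335 genes with a single symbol. Fosl1 and Jun each had a pair of probe sets and the other genes 1 each. The study compared wild type mice with mice lacking Mist1 (Mist1KO), each injected with saline or with caerulein, so that the reaction of the pancreas to caerulein can be read with and without Mist1. Mist1 (gene symbol Bhlha15) is a transcription factor that sets up the secretory apparatus of the acinar cells, which make the digestive enzymes. Caerulein mimics the gut hormone cholecystokinin: it drives acinar secretion, and too much of it given repeatedly brings on pancreatitis.

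All mice were males aged 2 to 4 months. Wild type mice were C57BL6, and for the Mist1KO mice the labels give the genotype without a strain or the way the allele was made. Each animal received 1 injection an hour for 4 hours, of saline or of caerulein, and for all groups but wild type saline the labels state that the mice were killed at the 4 hour point. The sources used here give no caerulein dose. Each of the 4 groups held 3 pancreata, described as biological replicates, with 1 Affymetrix array per pancreas. RNA came from the whole organ, so fewer cells of a type and less RNA per cell cannot be told apart.

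AP-1 is a dimer of basic leucine zipper proteins. Fos proteins do not pair with each other and bind DNA together with a Jun protein, whereas Jun proteins also form dimers among themselves. Fos, Fosb, Jun and Junb are immediate early genes in many cells, transcribed within minutes of a stimulus that activates MAP kinases or raises calcium and cyclic AMP, while Fosl1, Fosl2 and Jund encode dimer members that often act later or are present at rest. Their products bind the AP-1 site TGACTCA and the related cyclic AMP response element (CRE) TGACGTCA.

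For Fos, Jun and Junb, which rose after caerulein in wild type, the 250 bases before their annotated start sites are shown. They read 5′ to 3′ on the gene's own strand, from RefSeq with build GRCm38.p6. Jund and Fosl1 rose as well. The Jund window, which held no match to the motifs below, is not printed, and Fosl1 had no window. Capitals mark the motif matches. Fos lies at chr12:85473640-85473889 on the plus strand, Jun at chr4:95052223-95052472 on the minus strand and Junb at chr8:84978749-84978998 on the minus strand.
Fos: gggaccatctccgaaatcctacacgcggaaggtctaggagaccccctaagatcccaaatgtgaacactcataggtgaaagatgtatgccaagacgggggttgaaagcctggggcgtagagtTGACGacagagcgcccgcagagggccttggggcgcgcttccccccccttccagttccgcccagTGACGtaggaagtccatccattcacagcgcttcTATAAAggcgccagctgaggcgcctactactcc
Jun: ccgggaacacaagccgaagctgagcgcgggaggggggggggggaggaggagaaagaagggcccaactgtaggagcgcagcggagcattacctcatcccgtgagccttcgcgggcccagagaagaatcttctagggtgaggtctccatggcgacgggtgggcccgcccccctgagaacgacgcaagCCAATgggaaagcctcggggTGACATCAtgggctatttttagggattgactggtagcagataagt
Junb: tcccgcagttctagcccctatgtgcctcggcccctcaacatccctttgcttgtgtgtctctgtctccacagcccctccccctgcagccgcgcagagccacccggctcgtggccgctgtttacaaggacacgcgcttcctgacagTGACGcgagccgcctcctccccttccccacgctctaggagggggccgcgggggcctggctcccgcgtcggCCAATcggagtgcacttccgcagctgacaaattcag
The RefSeq table holds such windows for 6 of the 7 genes, without Fosl1. The motifs searched on both strands were the AP-1 site TGACTCA, the CRE TGACGTCA and its variant TGACATCA, the CRE core TGACG, the CCAAT box, the TATA box as TATAAA, and the CArG box, which binds serum response factor. Overlaps between matches of different motifs were looked for in these 6 windows and there were none. The Fos window held TGACG from 129 to 125 and from 66 to 62 bases before the start, and TATAAA from 33 to 28 bases before it. The Jun window held TGACATCA from 45 to 38 bases before the start and CCAAT from 65 to 61. The Junb window held TGACG from 106 to 102 bases before the start and CCAAT from 36 to 32. Of the other windows, Fosb held TGACG from 60 to 56 bases before the start used for its window, and Fosl2 and Jund held no match to these motifs. The Fosb window, chr7:19310046-19310295 on the minus strand, overlaps the gene as placed below, which reaches 19310118. Its start thus lies inside that span, and so does the match. Among 32851 windows of the same length in the table, TGACG was found in 17.8%, TGACATCA in 2.93%, CCAAT in 33.8%, TATAAA in 12.4%, TGACTCA in 4.46%, TGACGTCA in 1.55% and the CArG box in 1.47%. A match is a run of letters and not a measured binding site. Bases further upstream were not searched. A missing match, such as the CArG box in the Fos window, thus holds for these 250 bases alone.

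Values are deposited signal intensities. Differences are given in log2(value + 18.7) ± SE, each from 3 arrays against 3. Folds use the same scale, which understates changes of dim probe sets. Adjusted p-values are from limma, by Benjamini-Hochberg over the 15716 probe sets tested, and a gene was taken to have changed where this value was under 0.05. Of the 9 probe sets, 8 passed the filter on dim signal, and the dimmer probe set of Fosl1 did not. Where a gene had a pair of probe sets, named here the brighter and the dimmer by their mean signal, counts used the brighter one.

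The labelled genotypes were checked on Bhlha15, whose brighter probe set ranged over 1601 to 1624.3 with saline and 729.5 to 838.5 with caerulein in wild type, and over 89.9 to 106.8 and 38.3 to 79.4 in Mist1KO. Pancreatic identity was plain from 9 acinar markers, such as Cpa1 and Ctrb1, whose mean signal stood between the 95th and the 100th percentile of all probe sets. The array medians lay between 70.6 and 90.15. For the 18 hybridisation control probe sets, spiked in at a set amount, a geometric mean was taken on each array. In wild type it averaged 1263 ± 61.8 (SD, n = 3) with saline and 1074 ± 325 with caerulein, and in Mist1KO 914 ± 138 and 446 ± 58.0. The share of all signal on the brightest 50 probe sets was 17.8% and 15.4% in wild type, and 13.4% and 9.70% in Mist1KO. Mist1KO caerulein replicate 3 stood apart from its group on the first principal component, at 28.9 against 47.4 and 52.1, with the 6 saline arrays between -41.8 and -29.8. Results that rest on this array are also given without it.

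After caerulein, 5 of the 7 genes rose in wild type: Fos, Fosl1, Jun, Junb and Jund, by 3.18- to 5.69-fold. Fosb and Fosl2 did not pass the test, and both had negative differences. Among all 9481 genes tested, 18.7% changed, 8.74% upward and 9.96% downward. The median difference of the 7 genes was 1.89, beside -0.16 for all genes. In 5 of the 7 the caerulein arrays all lay above the saline arrays, which held for 12.4% of all genes, and in Fosb they all lay below, which held for 21.4%.

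Fos encodes the inducible partner of Jun proteins for which the family is named. It is found on chromosome 12, at 85473890 to 85477274 of build GRCm38.p6, and the first of the promoter windows printed above is its own. In wild type its signal was 114.1, 67.8 and 86.3 after saline, and 278, 1053.1 and 491 after caerulein. Each caerulein array stood above each saline array, and the caerulein arrays were spread widely, with replicate 2 the highest. Fos rose 5.12-fold (2.36 ± 0.36, adjusted p = 0.000432).

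Fosl1 encodes Fra-1, a Fos family protein without the strong activation domain of Fos, and lies on chromosome 19 from 5447698 to 5455938. With the brighter probe set its wild type signal was 176.1, 30.1 and 140.5 after saline, and 323.2, 803.9 and 349.2 after caerulein. The groups did not overlap, but the saline arrays differed among themselves, with replicate 2 far below the others. Fosl1 rose 4.09-fold (2.03 ± 0.46, adjusted p = 0.00685), and without that array the difference was 1.41 (adjusted p = 0.0183). The dimmer probe set read 6.5, 14.4 and 8.2 after saline against 38.4, 155.1 and 144.9 after caerulein. It entered no count, and in a fit without the filter its difference was 2.06 ± 0.56 (adjusted p = 0.0301).

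Jun encodes c-Jun, the Jun protein activated through phosphorylation by JNK, and lies on chromosome 4 from 95049036 to 95052222. Its brighter probe set read 226.6, 115.2 and 180.3 in wild type with saline and 465.3, 707.4 and 577.9 with caerulein. The dimmer probe set read 97.1, 49.4 and 90.4 after saline, and 409.7, 651.8 and 505.3 after caerulein. On both, the lowest caerulein array was above the highest saline array. The rise was 3.18-fold with the first (1.67 ± 0.21, adjusted p = 0.000105) and 5.59-fold with the second (2.48 ± 0.26, adjusted p = 1.75e-05). The probe sets thus gave the same direction and different sizes, and levels are not compared between them.

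Junb encodes a Jun protein that often restrains the activity of c-Jun, and lies on chromosome 8 from 84976909 to 84978748. Its wild type signal was 311.2, 132.9 and 138.5 after saline, and 1260.5, 1103 and 992.1 after caerulein. The caerulein arrays lay close together and far above every saline array. Junb rose 5.69-fold (2.51 ± 0.31, adjusted p = 6.64e-05).

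Jund encodes the Jun protein that is expressed at rest in many tissues, and lies on chromosome 8 from 70697739 to 70700616. Its wild type signal was 1250.5, 1158 and 831.5 after saline, and 3397.3, 4592.3 and 4095.7 after caerulein. Both groups were tight and did not overlap. Jund rose 3.71-fold (1.89 ± 0.18), with an adjusted p of 6.41e-06.

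Fosb, on chromosome 7 from 19302696 to 19310118, encodes a close relative of Fos with a truncated splice form. Its probe set was dim, at the 32.3rd percentile of mean signal, and read 56.5, 88.9 and 53.4 in wild type with saline against 20.5, 43.8 and 10.6 after caerulein. Every caerulein array was below every saline array, but the difference of -1.01 ± 0.37 did not pass the test (adjusted p = 0.0717). It passed without wild type caerulein replicate 2 (-1.30, adjusted p = 0.0373) and without Mist1KO saline replicate 3 (-1.01, adjusted p = 0.0445). Fosl2, on chromosome 5 from 32136472 to 32157840, encodes Fra-2. It read 198.3, 300.8 and 233.8 after saline and 264.2, 175.7 and 175.7 after caerulein, groups that overlapped, with a difference of -0.24 ± 0.18 (adjusted p = 0.395).

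**Figure D1:**
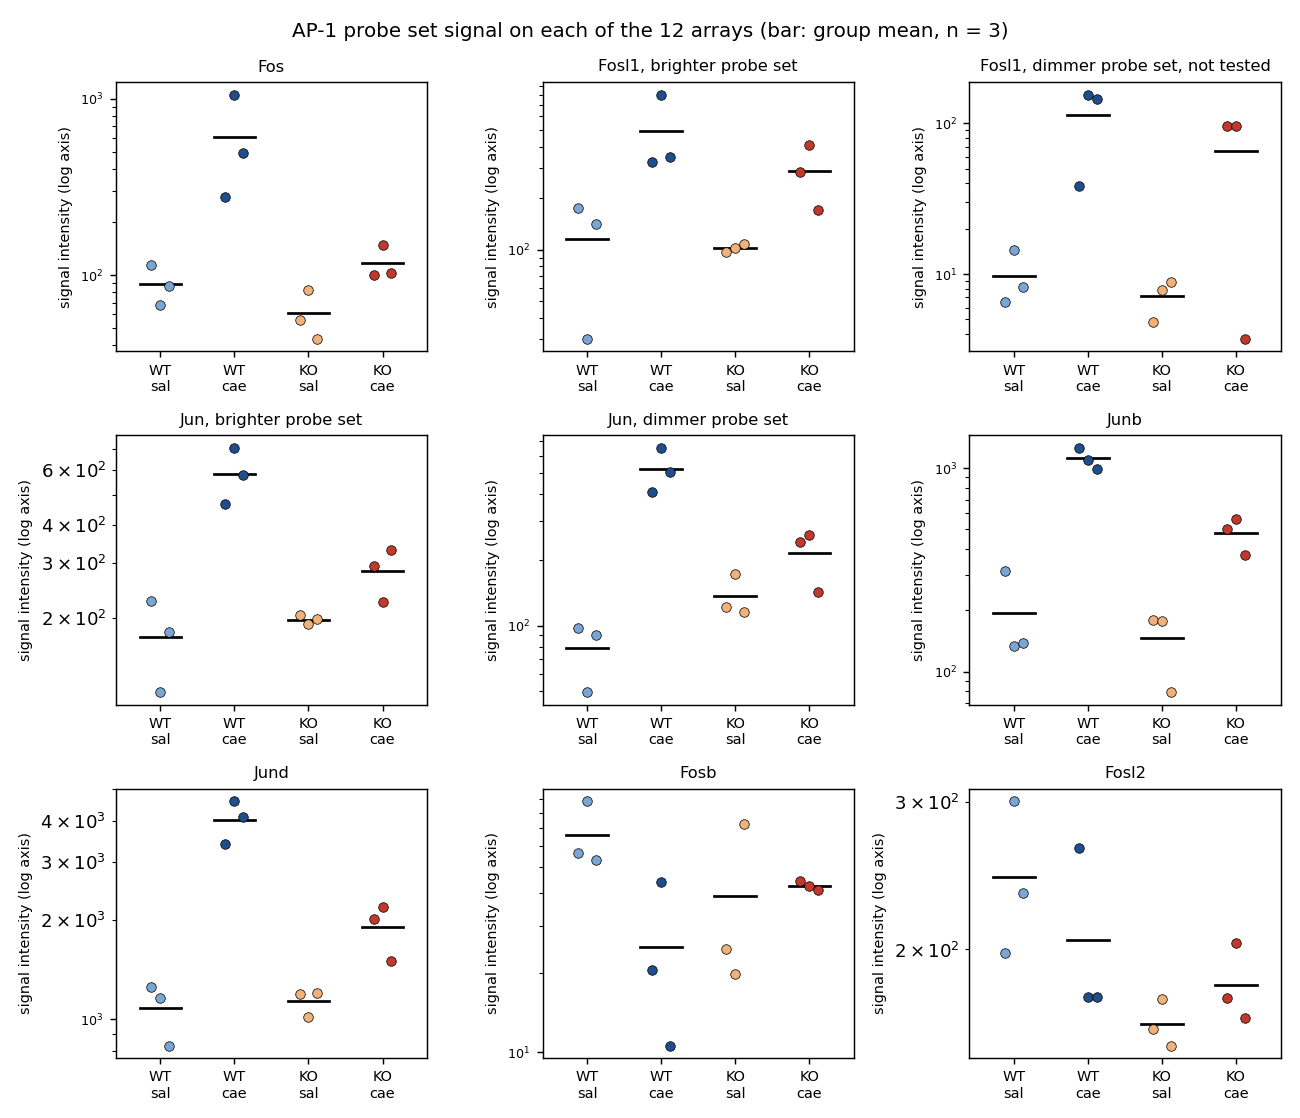
Signal intensity of the 9 AP-1 probe sets on each of the 12 arrays, on log axes, with wild type (WT) and Mist1KO (KO) after saline (sal) and caerulein (cae). Each point is 1 pancreas, and the bar is the group mean (n = 3). For Fos, Jun, Junb and Jund the wild type caerulein arrays lie above all others, whereas Fosb and Fosl2 show no such step.

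In Mist1KO the same comparison gave 2 changed genes of 7. Junb rose 3.15-fold and Jund 1.65-fold, and the other 5 did not pass the test. Over all genes tested, 24.2% changed in Mist1KO, 10.2% upward and 14% downward. The median difference of the 7 genes was 0.72, beside -0.14 for all genes. At an unadjusted p under 0.05 in limma, 5 genes were higher, namely Fos, Fosl1, Jun, Junb and Jund. These 5 also had caerulein arrays all above the saline arrays, which held for 15.5% of all genes. The share of all genes at the unadjusted cut was not counted.

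Junb read 179.9, 177.9 and 79 in Mist1KO after saline, and 502, 561.7 and 375.5 after caerulein. The difference was 1.65 ± 0.31 (adjusted p = 0.00131). Jund read 1189.5, 1016.7 and 1199.5 after saline, and 2018.9, 2181.9 and 1502.9 after caerulein. In both genes the groups were apart, and replicate 3 was the lowest of the caerulein arrays. The Jund difference was 0.72 ± 0.18 (adjusted p = 0.00821).

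Fos read 56.1, 82.7 and 43.4 in Mist1KO after saline, and 99.8, 148.1 and 102.7 after caerulein. The groups were apart by a narrow margin, and the difference of 0.78 ± 0.36 did not pass the test (adjusted p = 0.139). It passed without wild type caerulein replicate 2, which enters only the shared estimate of spread (0.78, adjusted p = 0.0459). It also passed in a fit of the compared groups alone (0.78, adjusted p = 0.0346). The brighter Jun probe set read 204.1, 190.9 and 198.2 after saline, and 293.3, 225.5 and 332 after caerulein, a difference of 0.47 ± 0.21 (adjusted p = 0.139). The dimmer Jun probe set read 121.7, 171.9 and 115.7 after saline, and 240.7, 258.5 and 142.1 after caerulein, a difference of 0.56 ± 0.26 (adjusted p = 0.138). On this probe set caerulein replicate 3 lay inside the saline range. Without it the difference was 0.81 (adjusted p = 0.0368).

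Fosl1 with its brighter probe set read 96.8, 102.2 and 108.2 in Mist1KO after saline, and 283.9, 408.3 and 169.8 after caerulein. Every caerulein array was above every saline array, and the difference of 1.26 ± 0.46 missed the threshold (adjusted p = 0.0612). It passed without Mist1KO caerulein replicate 3 (1.57, adjusted p = 0.0363). At 1.26 as before, it passed without wild type saline replicate 1 (adjusted p = 0.0466) or 2 (0.0125), or wild type caerulein replicate 2 (0.0444). With an offset of 50 (1.08, adjusted p = 0.0489) or a fit of the compared groups alone (1.26, 0.00632) it also passed. The dimmer probe set read 4.8, 7.8 and 8.8 after saline against 96.4, 95.6 and 3.7 after caerulein, so that 2 of the 3 caerulein arrays were high and replicate 3 was not. Fosb read 24.6, 19.8 and 72.7 after saline and 44.3, 42.3 and 41 after caerulein (0.20 ± 0.37, adjusted p = 0.749). Fosl2 read 160.8, 174.5 and 153.6 after saline and 174.8, 203.5 and 165.5 after caerulein (0.14 ± 0.18, adjusted p = 0.647). In both genes the groups overlapped.

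Acinar cell markers moved in the same comparison. Of 9 acinar markers tested, 8 were lower after caerulein in Mist1KO and 1 in wild type, beside 14% and 9.96% of all genes. Their summed signal ranged from 147992.5 to 191588.3 in wild type saline, from 125728.1 to 173290.6 in wild type caerulein, from 109468.8 to 129155.8 in Mist1KO saline and from 63096.1 to 96095.9 in Mist1KO caerulein. Of 10 neutrophil and macrophage markers tested, 3 were lower after caerulein in wild type and 1 was higher in Mist1KO, while Itgam and S100a9 were too dim to be tested. Their summed signal, over 12 markers, ranged from 1714.6 to 2310.6, from 1237.3 to 1683.6, from 1317.2 to 2033.3 and from 1743.8 to 1922.2 in the same order of groups. The 3′ to 5′ signal ratio of Actb, a sign of RNA quality and labelling, was 1.70 to 1.93 in Mist1KO saline and 1.08 to 1.20 in Mist1KO caerulein, with no overlap. In wild type it was 1.46 to 1.66 after saline and 1.28 to 1.40 after caerulein, again with no overlap. The part of these changes in the AP-1 values was not tested.

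**Figure D2:**
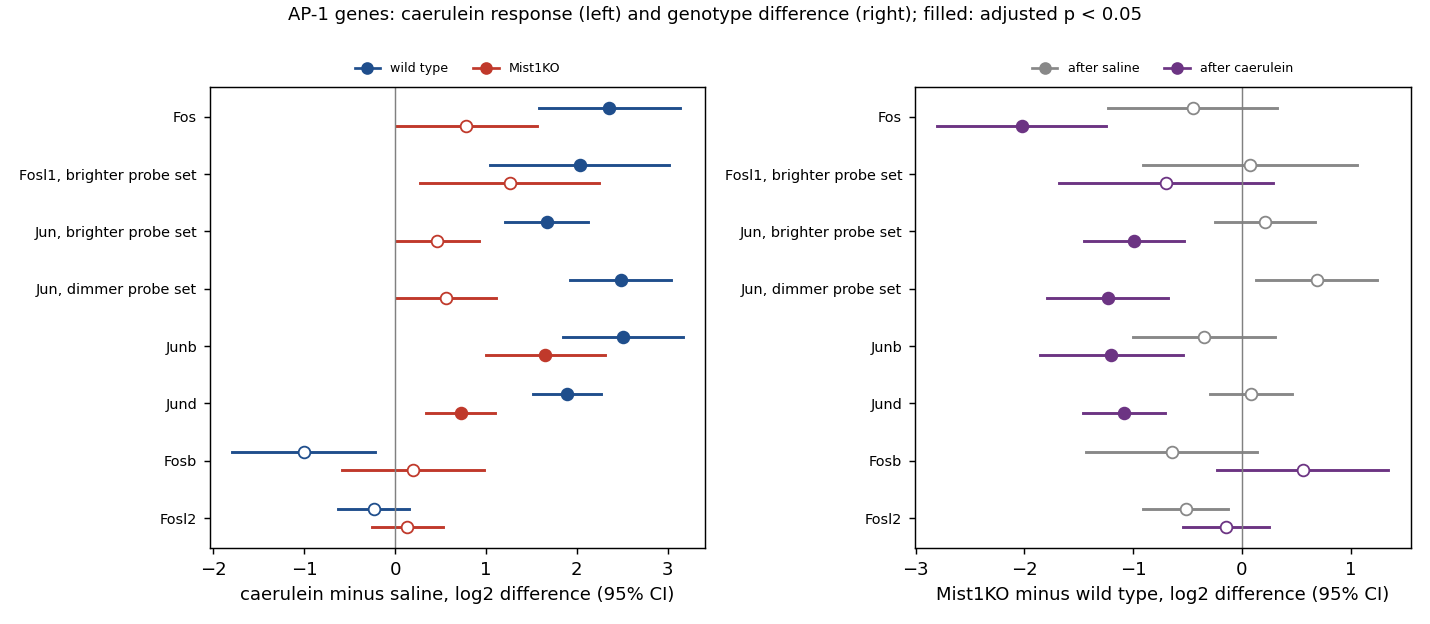
Log2 differences of the 8 tested AP-1 probe sets with 95% confidence intervals from limma. The left panel shows caerulein against saline in each genotype and the right panel Mist1KO against wild type after each injection. Filled points have an adjusted p under 0.05, which after saline holds for no probe set.

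After saline, the genotypes differed in none of the 7 genes. Over all genes tested, 13.1% differed, 6.14% higher and 6.95% lower in Mist1KO. In limma 1 of the 7, Fosl2, was lower at an unadjusted p under 0.05, a cut at which the share of all genes was not counted. The median difference of the 7 was -0.35, beside -0.09 for all genes. Fosl2 was lower on each Mist1KO array than on each wild type array, a separation found in 19.7% of all genes, with a difference of -0.52 ± 0.18 (adjusted p = 0.0814). The dimmer Jun probe set was higher on each Mist1KO array than on each wild type array (0.69 ± 0.26, adjusted p = 0.0967), while the brighter one overlapped between genotypes (0.21 ± 0.21, adjusted p = 0.557). The differences of the other genes were -0.45 ± 0.36 for Fos (adjusted p = 0.44), -0.65 ± 0.37 for Fosb (0.267), 0.08 ± 0.46 for Fosl1 (0.931), -0.35 ± 0.31 for Junb (0.487) and 0.09 ± 0.18 for Jund (0.778). The signs for Fosl1, Junb, Jund and the brighter Jun probe set turned when a single wild type saline array was left out. A miss of the threshold does not show equal levels, and the 95% interval for Fos ran from -1.23 to 0.32.

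After caerulein, 4 of the 7 genes were lower in Mist1KO than in wild type: Fos by 4.07-fold, Junb by 2.30-fold, Jund by 2.12-fold and Jun by 1.99-fold. None was higher, and Fosl1, Fosb and Fosl2 did not pass the test. Over all genes tested, 20.7% differed, 9.03% higher and 11.6% lower in Mist1KO. The median difference of the 7 genes was -0.99, beside -0.09 for all genes. In the same 4 genes every Mist1KO array lay below every wild type array, which held for 22.9% of all genes.

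For Fos the highest Mist1KO value after caerulein, 148.1, was below the lowest wild type value, 278, and the difference was -2.03 ± 0.36 (adjusted p = 0.00145). For Junb the ranges were 375.5 to 561.7 in Mist1KO and 992.1 to 1260.5 in wild type, with a difference of -1.20 ± 0.31 (adjusted p = 0.0134). This call rested on Mist1KO caerulein replicate 3: without it the difference was -1.04 and the adjusted p 0.0521. For Jund they were 1502.9 to 2181.9 and 3397.3 to 4592.3, with a difference of -1.08 ± 0.18 (adjusted p = 0.000743). For Jun the difference was -0.99 ± 0.21 with the brighter probe set (adjusted p = 0.00514) and -1.23 ± 0.26 with the dimmer (adjusted p = 0.0041). The Jun probe sets gave a 1.99-fold and a 2.35-fold lower level, with no overlap of genotypes on either.

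Fosl1 with its brighter probe set overlapped between the genotypes after caerulein, with 169.8 to 408.3 in Mist1KO and 323.2 to 803.9 in wild type (-0.70 ± 0.46, adjusted p = 0.318). Without Mist1KO caerulein replicate 3, the lowest array, the difference was -0.39 (adjusted p = 0.643). The difference was 0.56 ± 0.37 for Fosb (adjusted p = 0.316) and -0.14 ± 0.18 for Fosl2 (adjusted p = 0.626). In the same comparison the hybridisation controls had a log2 difference of -1.17. The Actb ratio was 1.08 to 1.20 in Mist1KO against 1.28 to 1.40 in wild type. Of 9 acinar markers 7 were lower, beside 11.6% of all genes, with a median of -0.90 beside -0.09. The part of any of these in these differences was not tested. With quantile normalization across arrays the differences were -1.92 for Fos (adjusted p = 0.00215), -1.22 for Junb (0.0196), -1.06 for Jund (0.00129), and -0.97 and -1.21 for the Jun probe sets.

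Across the 4 groups, the mean signal of Fos ordered Mist1KO saline (60.7 ± 20.1, SD, n = 3), wild type saline (89.4 ± 23.3), Mist1KO caerulein (116.9 ± 27.1) and wild type caerulein (607 ± 400). The saline groups did not pass the test between them, wild type saline and Mist1KO caerulein overlapped, and the step to wild type caerulein was the tested genotype difference. Junb and Jund had the same upper part of the order, with Mist1KO caerulein between the saline groups and wild type caerulein. For these genes and both Jun probe sets, wild type caerulein stood above the other 3 groups with no overlap. For the brighter Fosl1 probe set the caerulein groups stood next to each other and overlapped. Fosb and Fosl2 had their highest group mean in wild type saline, and none of the 4 comparisons of their groups passed the test.

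Whether the response to caerulein itself differed between genotypes was tested as the interaction of genotype and injection, which is the log2 response in Mist1KO minus that in wild type. It was negative and past the threshold for 2 of the 7 genes, Jun and Jund. Over all genes tested, 3.34% passed, 1.48% with a positive and 1.87% with a negative value. The median of the 7 genes was -0.85, beside 0.00 for all genes. At an unadjusted p under 0.05, 3 genes had a negative interaction and 1, Fosb, a positive one. At this cut the share of all genes was not counted.

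Jun had an interaction of -1.92 ± 0.37 with the dimmer probe set (adjusted p = 0.0128) and of -1.20 ± 0.30 with the brighter (adjusted p = 0.048). The first passed under each of 20 alternatives, with adjusted p from 0.00894 to 0.0358. The second was lost under 15 of 20, with adjusted p up to 0.116. Among these were the omission of replicate 2 (0.071) or 3 (0.0697) of wild type saline, replicate 2 (0.113) or 3 (0.0919) of wild type caerulein, Mist1KO saline replicate 1 (0.101), 2 (0.0838) or 3 (0.102), and Mist1KO caerulein replicate 1 (0.0904) or 2 (0.116). Jund had an interaction of -1.17 ± 0.25 (adjusted p = 0.0206). Its call was lost without wild type caerulein replicate 2 (-1.07, adjusted p = 0.0531), Mist1KO saline replicate 1 (-1.14, 0.0543) or Mist1KO saline replicate 3 (-1.13, 0.0602), and in a limma fit without the intensity trend (-1.17, 0.0601).

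For Fos the interaction was -1.57 ± 0.51 (adjusted p = 0.122), with a 95% interval from -2.67 to -0.48, and it passed without wild type caerulein replicate 1 (-2.01, adjusted p = 0.0247). For Junb it was -0.85 ± 0.43 (adjusted p = 0.344), for Fosl1 -0.77 ± 0.65 (0.613), for Fosb 1.20 ± 0.52 (0.256) and for Fosl2 0.37 ± 0.26 (0.525). For Fosl1 it was -0.46 without Mist1KO caerulein replicate 3 (adjusted p = 0.809) and -0.15 without wild type saline replicate 2 (0.917). A different response of these 5 genes in Mist1KO was therefore not shown. The hybridisation controls had an interaction of -0.70, whose part in these values was not tested.

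**Figure D3:**
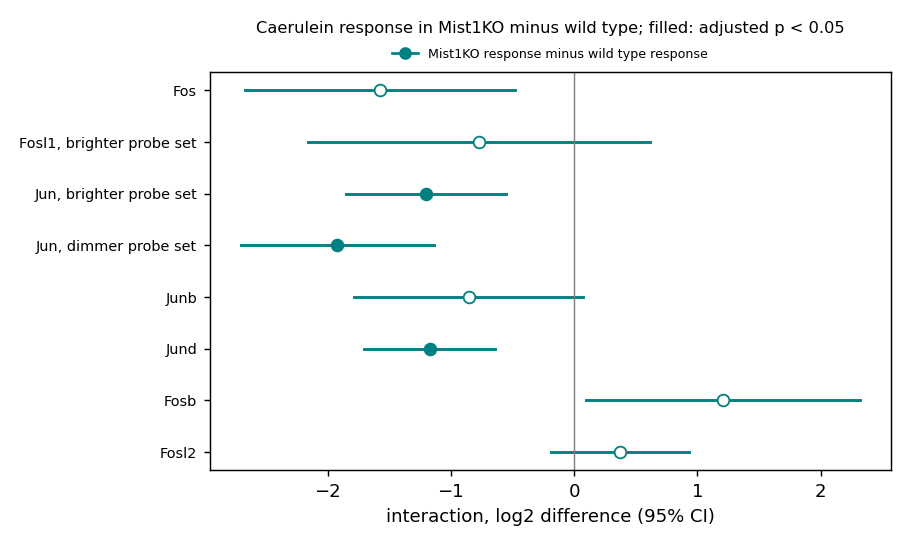
Interaction of genotype and injection for the 8 tested AP-1 probe sets, as the log2 caerulein response in Mist1KO minus that in wild type, with 95% confidence intervals from limma. Filled points, both Jun probe sets and Jund, have an adjusted p under 0.05.

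Genes around AP-1 were read from 5 lists, beginning with its other dimerisation partners, the ATF, BATF, JDP and MAF families. Of 12 listed partners 11 were matched and 8 tested. In wild type 3 rose after caerulein and in Mist1KO 2, with none lower in either. Over all genes tested, 8.74% rose and 9.96% fell in wild type, and 10.2% rose and 14% fell in Mist1KO. The list medians were 0.41 and 0.38, beside -0.16 and -0.14 for all genes. Atf3, a stress-induced factor that pairs with Jun proteins, read 144.1, 173.8 and 69.2 in wild type saline, 2324.6, 3618.3 and 2747.8 in wild type caerulein, 68.9, 104.2 and 103.8 in Mist1KO saline and 877.7, 871 and 183.8 in Mist1KO caerulein. All caerulein arrays were above the saline arrays of their genotype, and Mist1KO caerulein replicate 3 was far below the others of its group. Atf3 rose by 4.35 ± 0.46 in wild type (adjusted p = 1.92e-05) and by 2.31 ± 0.46 in Mist1KO (0.00221), or 3.03 in Mist1KO without that array. After caerulein it was lower in Mist1KO (-2.40 ± 0.46, adjusted p = 0.00235), and without that array the difference was -1.68 (adjusted p = 0.00168).

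The small MAF proteins Mafg and Mafk also rose in wild type, Mafg by 1.70 ± 0.33 (adjusted p = 0.00243) and Mafk by 0.93 ± 0.20 (0.00612). Mafk rose by 0.69 ± 0.20 in Mist1KO (adjusted p = 0.024), a call lost without Mist1KO saline replicate 2 (0.53, adjusted p = 0.109) or 3 (0.0779) and without Mist1KO caerulein replicate 1 (0.0799) or 2 (0.103). Atf2, a CRE-binding partner of Jun, was higher in Mist1KO after caerulein (0.63 ± 0.16, adjusted p = 0.0142), a call lost without wild type caerulein replicate 3 (0.057) or Mist1KO caerulein replicate 2 (0.0666). After caerulein, 1 of the 8 partners tested was thus higher and 1 lower in Mist1KO, beside 9.03% and 11.6% of all genes. No partner passed the test between genotypes after saline or in the interaction, where 13.1% and 3.34% of all genes did. The list median in the interaction was -0.49, beside 0.00 for all genes, so equal responses were not shown.

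MAP kinases pass signals to AP-1 by phosphorylating its proteins and the factors at its promoters. Of 17 listed, 13 were matched and 12 tested, and 4 rose in wild type with none lower, while in Mist1KO 5 rose and 2 fell. The shares over all genes were 8.74% higher and 9.96% lower in wild type, and 10.2% and 14% in Mist1KO. Medians of the list were 0.05 and 0.03, beside -0.16 and -0.14 for all genes. Map3k5, which encodes the stress kinase ASK1, read 31.7, 87.3 and 52.5 in wild type saline, 445.5, 683.9 and 614 in wild type caerulein, 50.1, 59 and 50.7 in Mist1KO saline and 145.8, 133.6 and 96.1 in Mist1KO caerulein. It rose by 3.03 ± 0.25 in wild type (adjusted p = 2.48e-06), was lower in Mist1KO after caerulein (-2.05 ± 0.25, adjusted p = 9.11e-05) and had an interaction of -2.04 ± 0.36 (adjusted p = 0.00762). As for Jun, the wild type caerulein arrays stood above all others. In Mist1KO too, each Map3k5 caerulein array lay above each saline array, a separation found in 15.5% of all genes.

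Map2k3 and Rps6ka3 rose in both genotypes. Map2k3, which activates p38, rose by 2.52 ± 0.18 in wild type (adjusted p = 7.42e-07) and by 2.61 ± 0.18 in Mist1KO (3.76e-07). Rps6ka3, the kinase RSK2 downstream of ERK, rose by 1.43 ± 0.33 in wild type (adjusted p = 0.00835) and by 2.26 ± 0.33 in Mist1KO (0.000218). Of the 12 MAP kinases tested, 3 were lower and 1 was higher in Mist1KO than in wild type after caerulein. Over all genes, 11.6% were lower and 9.03% higher. The list median in this comparison was -0.11, beside -0.09 for all genes. After saline 2 were lower, beside 6.95% of all genes, and 2 had a negative interaction, beside 1.87%. Mapk14, which encodes p38 alpha, was lower in Mist1KO after caerulein (-0.90 ± 0.15, adjusted p = 0.000894). Its interaction was -0.89 ± 0.21 (adjusted p = 0.0357), a call lost on leaving out any single array but wild type saline replicate 3 and Mist1KO caerulein replicate 3, with adjusted p up to 0.0959. This call was also lost in a limma fit without the intensity trend (0.0627). Mapk9, which encodes the Jun kinase JNK2, was lower in Mist1KO after caerulein (-0.71 ± 0.16, adjusted p = 0.00607). It was also lower after saline (-0.63 ± 0.16, adjusted p = 0.0191), a call lost without wild type saline replicate 1 (0.0631) or 2 (0.05) or Mist1KO saline replicate 1 (0.0736) or 2 (0.0518). Map2k1, the ERK kinase MEK1, was lower after saline (-0.58 ± 0.13, adjusted p = 0.0104). Map2k6, a further p38 activator, fell in Mist1KO after caerulein (-1.06 ± 0.34, adjusted p = 0.0351), a call lost on leaving out any of the 3 saline arrays or caerulein replicate 1 or 2 of that genotype, with adjusted p up to 0.138. The Map2k6 call was also lost with quantile normalization (0.0548), arrays centred on their median (0.0591) or a replicate block (0.0528).

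Serum response factor, its ternary complex partners and CREB factors act on the Fos promoter. Of 10 listed, 9 were matched and tested, and 4 rose in each genotype after caerulein, with 1 lower in wild type. Among all genes, 8.74% rose and 9.96% fell in wild type, and 10.2% rose in Mist1KO. Their list medians were 0.56 in wild type and 0.45 in Mist1KO, beside -0.16 and -0.14 for all genes. Crem, which encodes the cyclic AMP response element modulator, read 72.4, 131.1 and 80.2 in wild type saline, 321.4, 368.1 and 505.9 in wild type caerulein, 63.1, 44.7 and 70.2 in Mist1KO saline and 160.2, 185.7 and 171.3 in Mist1KO caerulein. It rose by 1.89 ± 0.22 in wild type (adjusted p = 4.57e-05) and by 1.30 ± 0.22 in Mist1KO (0.000626). After caerulein it was lower in Mist1KO (-1.10 ± 0.22, adjusted p = 0.00305), as Fos was. Srf rose in both, by 1.46 ± 0.26 in wild type (adjusted p = 0.00123) and by 1.12 ± 0.26 in Mist1KO (0.00571). Elk3 fell in wild type (-1.01 ± 0.30, adjusted p = 0.0313), a call lost without wild type saline replicate 1 (0.104) or 3 (0.0702) or wild type caerulein replicate 1 (0.104) or 2 (0.0876). The Elk3 call was also lost with quantile normalization (0.0643), arrays centred on their median (0.0668) or a fit of the compared groups alone (0.0837). Elk4 rose in Mist1KO (0.60 ± 0.16, adjusted p = 0.0126), a call lost without Mist1KO saline replicate 3 (0.0533).

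Of 7 listed regulators of Fos and Jun protein stability and activity, 5 were matched and tested. Fbxw7, a ubiquitin ligase subunit that targets c-Jun for degradation, fell in wild type after caerulein (-0.81 ± 0.21, adjusted p = 0.0174), a call lost without replicate 1 of the saline arrays (0.052) or replicate 2 of the caerulein arrays (0.0589). Cops5, a signalosome subunit that binds c-Jun, was higher in Mist1KO after caerulein (0.67 ± 0.14, adjusted p = 0.00482). These were the only calls on the list in the 5 comparisons. Over all genes, 9.96% fell in the comparison that called Fbxw7, and 9.03% were higher in the one that called Cops5.

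Of 20 textbook AP-1 target genes, 17 were matched and 14 tested. After caerulein 5 rose and 2 fell in wild type, and 5 rose and 1 fell in Mist1KO. Of all genes tested, 8.74% rose and 9.96% fell in wild type, and 10.2% rose and 14% fell in Mist1KO. The list medians were 0.00 and 0.24, beside -0.16 and -0.14 for all genes. Targets thus moved both ways, with more rises than falls in each genotype. After caerulein 2 were higher and 3 lower in Mist1KO than in wild type, beside 9.03% higher and 11.6% lower over all genes. Hbegf, a growth factor that activates the EGF receptor, read 183.5, 120.8 and 136.4 in wild type saline, 1405.3, 3673.6 and 3022.1 in wild type caerulein, 65.5, 85.5 and 57 in Mist1KO saline and 661.2, 855.9 and 114 in Mist1KO caerulein. It rose by 3.95 ± 0.53 in wild type (adjusted p = 0.000165) and by 2.30 ± 0.53 in Mist1KO (0.0064), or 3.14 there without Mist1KO caerulein replicate 3. After caerulein it was lower in Mist1KO (-2.55 ± 0.53, adjusted p = 0.00413), and without the same array this difference was -1.71 (adjusted p = 0.00307).

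Dusp1, a phosphatase that inactivates MAP kinases, rose by 3.85 ± 0.57 in wild type (adjusted p = 0.000351) and was lower in Mist1KO after caerulein (-3.04 ± 0.57, adjusted p = 0.00217). Without Mist1KO caerulein replicate 3 the latter difference was -2.28 (adjusted p = 0.00501). Vegfa, the vascular endothelial growth factor, read 125, 149.1 and 124.1 in wild type saline, 490.4, 419.2 and 501.5 in wild type caerulein, 127.3, 159.1 and 140.4 in Mist1KO saline and 146.5, 162.9 and 151.4 in Mist1KO caerulein. Only the wild type caerulein arrays stood apart. Vegfa rose by 1.69 ± 0.14 in wild type (adjusted p = 2.43e-06) and had an interaction of -1.59 ± 0.20 (adjusted p = 0.00141).

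Of the other targets, Timp1 stood highest in Mist1KO caerulein, unlike Fos and Jun. Timp1, an inhibitor of matrix metalloproteinases, read 204.1, 119.1 and 120.5 in wild type saline, 158, 177.8 and 117.4 in wild type caerulein, 112, 96.9 and 93.6 in Mist1KO saline and 858.4, 863.4 and 692.1 in Mist1KO caerulein. It rose in Mist1KO by 2.78 ± 0.20 (adjusted p = 5.27e-07), was higher there than in wild type after caerulein (2.29 ± 0.20, adjusted p = 5.65e-06) and had an interaction of 2.73 ± 0.28 (adjusted p = 0.000406). Cd44, a hyaluronan receptor, had an interaction of 1.46 ± 0.30 (adjusted p = 0.0195), a call lost without Mist1KO saline replicate 3 (0.0571) or Mist1KO caerulein replicate 1 (0.0557) or 2 (0.0557). Hmox1, heme oxygenase 1, rose in Mist1KO by 2.34 ± 0.22 (adjusted p = 4.95e-06) but did not pass the test in the interaction. After saline it was lower in Mist1KO (-0.83 ± 0.22, adjusted p = 0.0266), a call lost without wild type saline replicate 1 (0.0695) or 2 (0.0588), and without Mist1KO saline replicate 2, where the difference was -0.55 (0.0763). This Hmox1 call was also lost in a fit of the compared groups alone (0.138). Sprr1a was lower in Mist1KO after saline (-0.86 ± 0.26, adjusted p = 0.0479), a call lost under 16 of 21 alternatives, among them the omission of any single array but wild type caerulein replicates 2 and 3, with adjusted p up to 0.149.

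**Figure D4:**
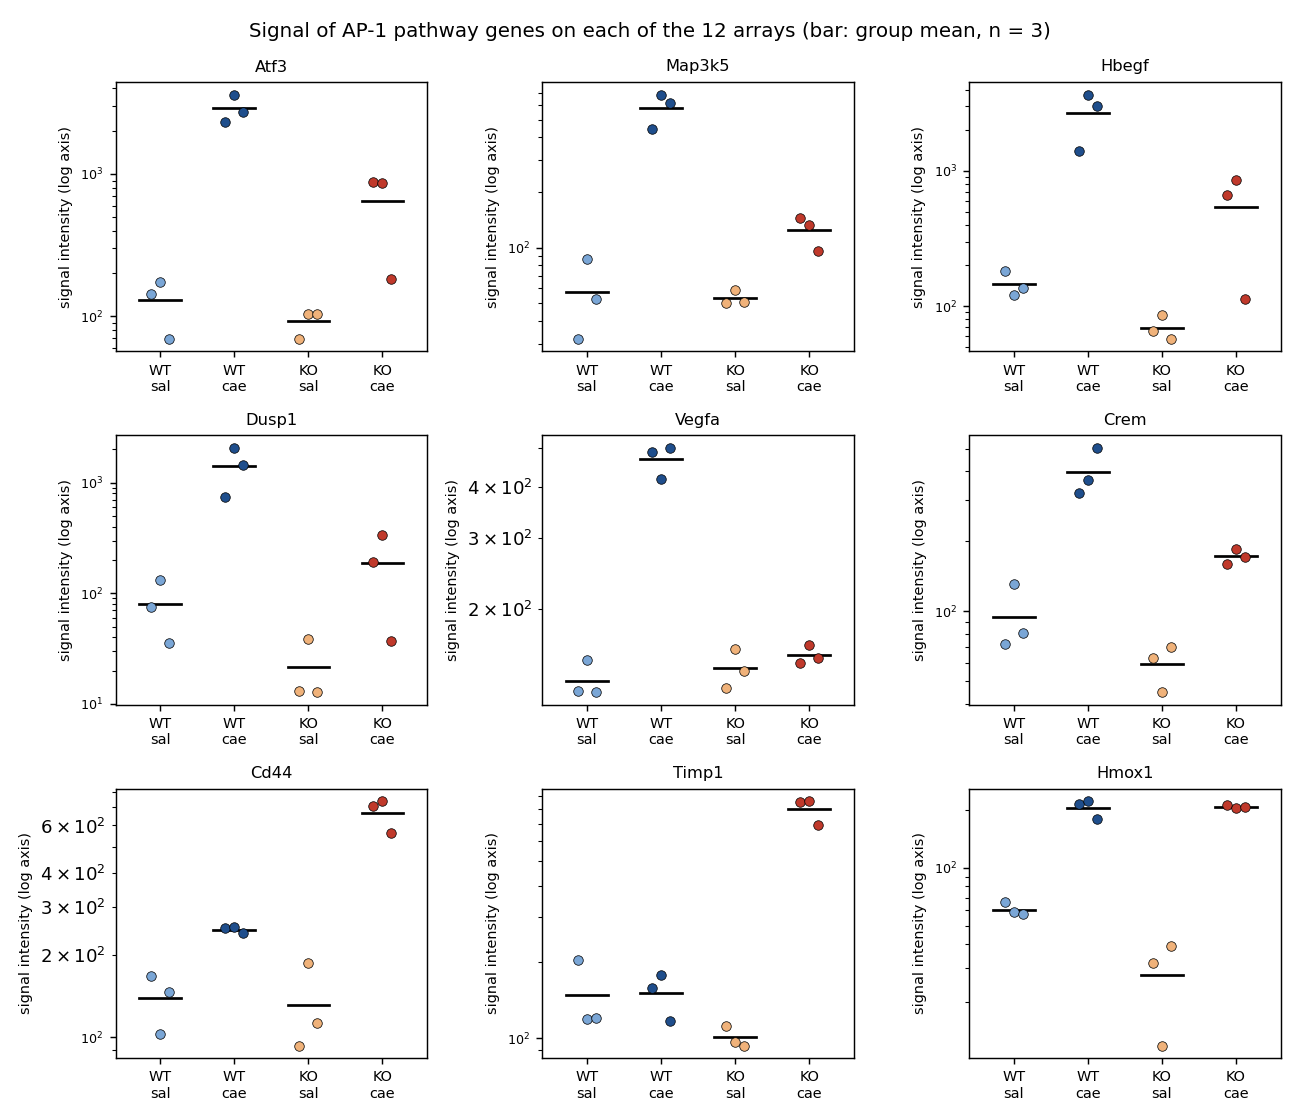
Signal intensity of 9 genes of the AP-1 pathway lists on each of the 12 arrays, on log axes, with groups as in the plot of AP-1 probe sets and bars at the group mean (n = 3). Vegfa is high only on the 3 wild type caerulein arrays, between 419.2 and 501.5, and Timp1 only on the 3 Mist1KO caerulein arrays, between 692.1 and 863.4.

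The genes whose pattern over the 12 arrays was most like that of each member were found by the root mean square of the difference in centred log2 signal, beside which each member's own SD over the arrays is given. For Fos (SD 1.16) they were Cth (0.374), Siah2 (0.439) and Fermt2 (0.449). For Jund (SD 0.783) they were Pprc1 (0.172), B3gnt2 (0.197) and Rars (0.205), and for Junb (SD 1.19) Slc7a3 (0.363), Itga5 (0.411) and Gch1 (0.433). For the brighter Jun probe set (SD 0.687) they were Actb (0.244), Hspa5 (0.259) and Wdr75 (0.287), and for Fosl1 (SD 1.04) Eif1a (0.425), Phlda1 (0.429) and the dimmer probe set of Jun (0.460). Fosl1 was the one member to have another member among its nearest 3. For Fosb (SD 0.526) they were Pklr, Slc14a2 and Slc3a1, at 0.286 to 0.290, and for Fosl2 (SD 0.266) Tmub1, Capn15 and Ankra2, at 0.127 to 0.134, both of them members that varied little. All arrays share the 4 groups and the array scaling, so these likenesses describe the pattern of the groups.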

How the data were processed

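Total RNA of whole mouse pancreas was measured on 12 Affymetrix arrays, 3 pancreata in each of the 4 groups, and samples were grouped by genotype and injection in their titles. The deposited values are signal intensities on a linear scale, one column per array. Their 2% trimmed means are nearly equal (151.08 to 151.37), so the authors had scaled the arrays. The sources used here name neither the summarising software nor the scaling target and hold no detection calls, and about 10 µg of RNA was labelled, per the labels' protocols. Signal over background is therefore unknown, and the number of arrays limits precision. No batch or scan date was given.

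The platform annotation gave a single symbol to 20240 of 22516 probe sets (64 controls, 682 with several symbols, 1530 with none). After adding 18.7, the 20th percentile of all values, log2 was taken. Control probe sets and those at or below the 30th percentile of mean log2 were left out, leaving 15716, which include 9481 named genes. Group means were fitted with limma 3.58.1 in R 4.3.3 (eBayes with an intensity trend, 8 residual and 5.75 prior degrees of freedom). The 4 comparisons of groups and the interaction were tested two-sided. Recovery was tried on simulated data with 15716 probe sets, for caerulein against saline in wild type. Of 100 probe sets changed by 1 in log2, 53% were recovered, and of 100 changed by 2, 95%. False ones made up 6.33% of the calls. The measured comparison called 2975 probe sets, a far larger share than was changed in the simulation. Recovery at that share was not tested, so these rates hold for the simulated setting alone. Figures used matplotlib 3.10.9 in Python 3.11.15.

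The members and lists were chosen with earlier results of these data known. A gene is represented by its brightest probe set. Pathway genes are named where they are among the 3 largest differences past the threshold in their list and comparison. Alternatives changed the offset, normalization, filter, variance prior, groups fitted, use of probe sets and a replicate block, or left out each array. Those for single pathway genes were chosen after seeing the data.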

Additional observations from a re-analysis of the deposited data

Results flagged for a closer look

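The caerulein response differed between the genotypes by the interaction test in limma for both probe sets of Jun and for Jund, and for 5 pathway genes. The Mist1KO response minus the wild type response was -1.92 in log2 for the dimmer Jun probe set, -1.20 for the brighter and -1.17 for Jund. It was -2.04 for Map3k5, -1.59 for Vegfa and -0.89 for Mapk14. It was positive for Timp1, at 2.73, and for Cd44, at 1.46. Of these, the dimmer Jun probe set, Map3k5, Vegfa and Timp1 passed under each of their 20 alternatives.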

How the results depend on the processing

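Of 827 alternative values for the 40 log2 differences of AP-1 probe sets, 788 kept their direction and side of the threshold, 20 lost a call, 12 gained one and 7 turned sign. The counts of changed AP-1 genes stayed at 5 of 7 after caerulein in wild type except for 6 without wild type caerulein replicate 2 or Mist1KO saline replicate 3, and between the genotypes stayed at 0 after saline and at 3 or 4 after caerulein as single arrays were left out. The Mist1KO caerulein count of 2 became 4 in a fit of the compared groups alone. It ranged from 2 to 4 as arrays were left out, with 4 without wild type caerulein replicate 2. With an offset of 50, Fosl1 passed beside Junb and Jund (adjusted p = 0.0489). The interaction count of 2 became 1 with an offset of 1, quantile normalization, arrays centred on their median, no filter or the replicate block, and 0 with eBayes without the trend. It ranged from 0 to 3 as arrays were left out, with 0 without wild type caerulein replicate 2 or Mist1KO saline replicate 1 or 3. The cause of these changes was not tested.

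Jund after saline turned to -0.020 under quantile normalization. As arrays were left out, the genotype difference after saline ranged from -0.087 to 0.20 for Jund, from -0.54 to 0.017 for Junb, from -0.54 to 0.46 for Fosl1 and from -0.030 to 0.41 for the brighter Jun probe set. The genotype difference after caerulein ranged from -0.23 to 0.036 for Fosl2, and the Mist1KO response from -0.039 to 0.58 for Fosb. None of these had passed the test. Fosb was not tested with a filter at the 50th percentile.

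Same-numbered arrays, taken as deviations from their group means over all probe sets tested, correlated between -0.104 and 0.0452 over 18 pairs. Differently numbered arrays were not compared, and the labels do not say what a number shares, so whether the numbers mark a pairing was not settled. The replicate block left 1 gene in the interaction. Centring arrays on their median moved the median of all probe sets from -0.14 to -0.01 after caerulein in wild type, and the share of higher calls there from 48.5% to 67.8%. Calls in the interaction over all probe sets were 518, and 271 without Mist1KO caerulein replicate 1. For the 43 named pathway differences, 834 of 896 alternative values kept their call, 62 lost it and none turned sign. Of 545 alternatives for 25 pathway list counts, 482 stayed within 1.5 times the count.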
